A study of Mus musculus with 17 samples.

Results

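Cytosolic ribosomal protein genes encode the proteins of the large (Rpl) and small (Rps) subunits of the ribosome in the cytoplasm. The members were all autosomal protein-coding genes of the mm10 annotation whose symbol is Rpl or Rps followed by a number, leaving out the Rps6k kinases, pseudogenes and predicted genes. This rule used names only and gave 78 of 20807 autosomal protein-coding genes. By their labels, 40 were large-subunit genes, 29 were small-subunit genes, 8 were paralogs or retrogenes (Rpl3l, Rpl7l1, Rpl10l, Rpl22l1, Rpl36al, Rpl39l, Rps27l and Rps27rt), and 1, Rps19bp1, shares the name but encodes a binding partner of Rps19 and not a ribosomal protein. Their promoters are used here as a housekeeping reference across the libraries.

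The libraries were ATAC-seq of NeuN-positive nuclei, a neuronal fraction sorted from the nucleus accumbens, a reward area of the brain. Each library pooled 3 C57BL/6J mice (C57BL/6 in the labels) aged 52 to 54 days. Diestrus and proestrus females (cycle stages, estrogen being low in the former and high in the latter) and males were either controls, which were given no cocaine and stood for the time before the drug, or were taken 1 h after 10 mg/kg of cocaine. No vehicle injection of the controls is described in the sources used here. There were 3 libraries in each group except male cocaine, which had 2. The labels do not say more about how the pools were independent, so that p-values measure the spread between these pools. For each gene the strongest peak within 1 kb of its annotated 5′ end was taken, with its width and its fold enrichment. The latter is the read pileup at the summit plus 1, divided by the background pileup of the same library plus 1.

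Libraries held 75458 to 157005 peaks, with the 2 male cocaine libraries lowest (87707 and 75458), and background pileups of 6.26 to 9.55 reads. At the summits of member peaks the median pileup of a library was 109 to 184 reads. Neuronal identity was checked with promoters of marker genes: 10 of 11 neuronal genes had a peak in all 17 libraries and none lacked one throughout, whereas 1 of 14 glial and endothelial genes (Mbp) had a peak in all 17 and 7 had none. The astrocyte gene Gfap had a peak in 16 libraries, as did the neuronal gene Gad1, with median fold enrichments of 3.48 and 4.13.

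Ribosomal protein genes are transcribed in every cell at high rates, and each ribosome needs 1 copy of most of these proteins. Their transcripts typically begin in a run of pyrimidines, the 5′ terminal oligopyrimidine tract, which places their translation under the control of the mTOR pathway. Many of them also carry small nucleolar RNAs in their introns, and here 26 of the 78 genes held 53 annotated snoRNA genes. To show runs of pyrimidines near annotated starts, 6 promoters are given, and a marked run need not be the tract in which transcripts begin. They were taken from the 5 most and 5 least enriched members and 10 well-known ones, as the 3 most and 3 least enriched of those with a run of at least 8 pyrimidines near a RefSeq start within 250 bp of the measured 5′ end. Each line has 30 bases of GRCm38.p6 from RefSeq in the direction of transcription, and capitals mark the longest run of C and T within 30 bases of the annotated start.
Rpl13a, chr7:45128722-45128751, minus strand: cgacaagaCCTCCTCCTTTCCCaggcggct
Rpl34, chr3:130730330-130730359, minus strand: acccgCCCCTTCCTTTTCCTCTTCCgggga
Rps6, chr4:86857349-86857378, minus strand: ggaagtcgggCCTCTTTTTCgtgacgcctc
Rpl11, chr4:136053358-136053387, minus strand: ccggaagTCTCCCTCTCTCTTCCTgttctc
Rps27l, chr9:66946053-66946082, plus strand: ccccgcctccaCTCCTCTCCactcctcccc
Rpl4, chr9:64173361-64173390, plus strand: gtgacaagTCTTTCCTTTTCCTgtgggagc
The runs were 9 to 20 bases long, and at Rps27l the first of 2 runs of 9 bases is marked. Relative to the annotated start, the marked runs began at −22 at Rps27l and −18 at Rpl4 and ended before it. At Rpl11 the run began 14 bases after it. The annotated starts of Rpl11 and Rps27l lie outside the printed bases. Of the 6 genes, only Rps6 has a C at the annotated start followed by at least 4 pyrimidines. A run of at least 8 bases was a condition of the choice, so the 6 genes say nothing of how runs and levels go together. Means of fold enrichment and of width are geometric outside the plots, and the mean fold enrichment was 36.0 at Rpl13a and 6.06 at Rpl4, which both have a run of 14 bases.

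RefSeq promoter sequences were at hand for 59 of the 78 genes. A run of at least 8 pyrimidines within 30 bases of a start was found in 33 of the 59 (55.9%), against 25.7% of 15687 protein-coding genes in the same table. The stricter pattern of a C at the annotated start followed by at least 4 pyrimidines was present in 13 (22.0%), against 2.73% of all, and Rps6, the subject of S6 kinase phosphorylation, was one of them. Over the 250 bases before and 50 bases after a start, the letters CCGGAAG, which ETS factors bind, occurred on either strand in 23 members (39.0%, against 13.6% of all). The letters AANATGGC of the YY1 motif occurred in 12 (20.3%, against 7.54%), and an occurrence can share bases with CCGGAAG. The Sp-type letters GGGCGG occurred in 35 (59.3%, against 51.7%), and the TATA letters TATAAA in 4 (6.78%, against 14.4%). The cAMP response element letters TGACGTCA occurred in 5 (8.47%, against 2.70%), and the AP-1 letters TGACTCA in 2 (3.39%, against 5.43%). These are counts of letters and say nothing of bound factors.

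Nearly all of these promoters were open in every library. A peak stood within 1 kb of the 5′ end in all 17 libraries for 72 of 78 members (92.3%), against 10950 of 20807 autosomal protein-coding genes (52.6%) and 76 of 78 mitochondrial ribosomal protein genes (97.4%). Of 249 annotated pseudogenes named for ribosomal proteins, 5 had a peak in all libraries and 207 had none. Thus the processed copies that share much of their sequence with the members were mostly without peaks. How reads that align to both were placed is not given in the sources used here, and calls at retrocopies are uncertain.

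The 6 members without a peak in every library fell into 2 kinds. Rpl10l, a retrogene known from testis, and Rpl39l, a testis paralog, had no peak in any library. Rpl3l, a paralog of muscle, had 1 peak, in proestrus control library 3, with a fold enrichment of 2.56. Rps27rt, an intronless copy, had weak peaks in 5 libraries: 2.80, 3.03 and 3.18 in the male controls, 2.59 in diestrus control 3 and 2.37 in diestrus cocaine 1. These values were at the lower end of the peaks called, at summits of 19 to 28 reads.

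Rps2 and Rpl17 were of the other kind, general ribosomal genes whose annotated 5′ end lies away from the peak. Rps2 had a peak within 1 kb in 10 libraries and Rpl17 in 12. When a peak near any annotated transcript start was accepted, both had one in all 17 libraries, with fold enrichments of 13.1 to 31.5 at Rps2 and 9.19 to 18.4 at Rpl17. The same change raised the mean level more than 1.5-fold at 3 further members: Rps14 from 9.23 to 28.4, Rpl3 from 9.87 to 27.4 and Rps24 from 7.92 to 16.2. Their low places in the order of levels below thus go with the annotated 5′ end used, and 74 members had a peak in all libraries with any start. Any differences given below for these genes are likewise those of the peak near the annotated 5′ end, not of the stronger peak near another start.

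In every library the median fold enrichment of the members was above that of all promoters with a peak. The member medians were 13.2 to 20.3 by library and the medians of all promoters 10.5 to 15, a ratio of 1.25 to 1.47. Mitochondrial ribosomal protein genes, which serve the separate ribosome of mitochondria, had medians of 10.2 to 16.6. The 7 ribosomal protein genes outside the name rule, among them Rplp0, Rplp1, Rplp2, Rpsa, Fau and Rack1, all had peaks in 17 libraries, and the medians of the single genes lay between 15.5 (Rack1) and 27.3 (Rplp0). The 4 X-linked ones left out by the rule also had peaks in all 17, from 6.61 (Rps4x) to 23.1 (Rpl10). Other translation genes were of the same order: 25 of 25 ribosome biogenesis genes and 19 of 21 initiation factor genes had peaks in all libraries, with median fold enrichments of 15.1 and 18.5.

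**Figure D1:**
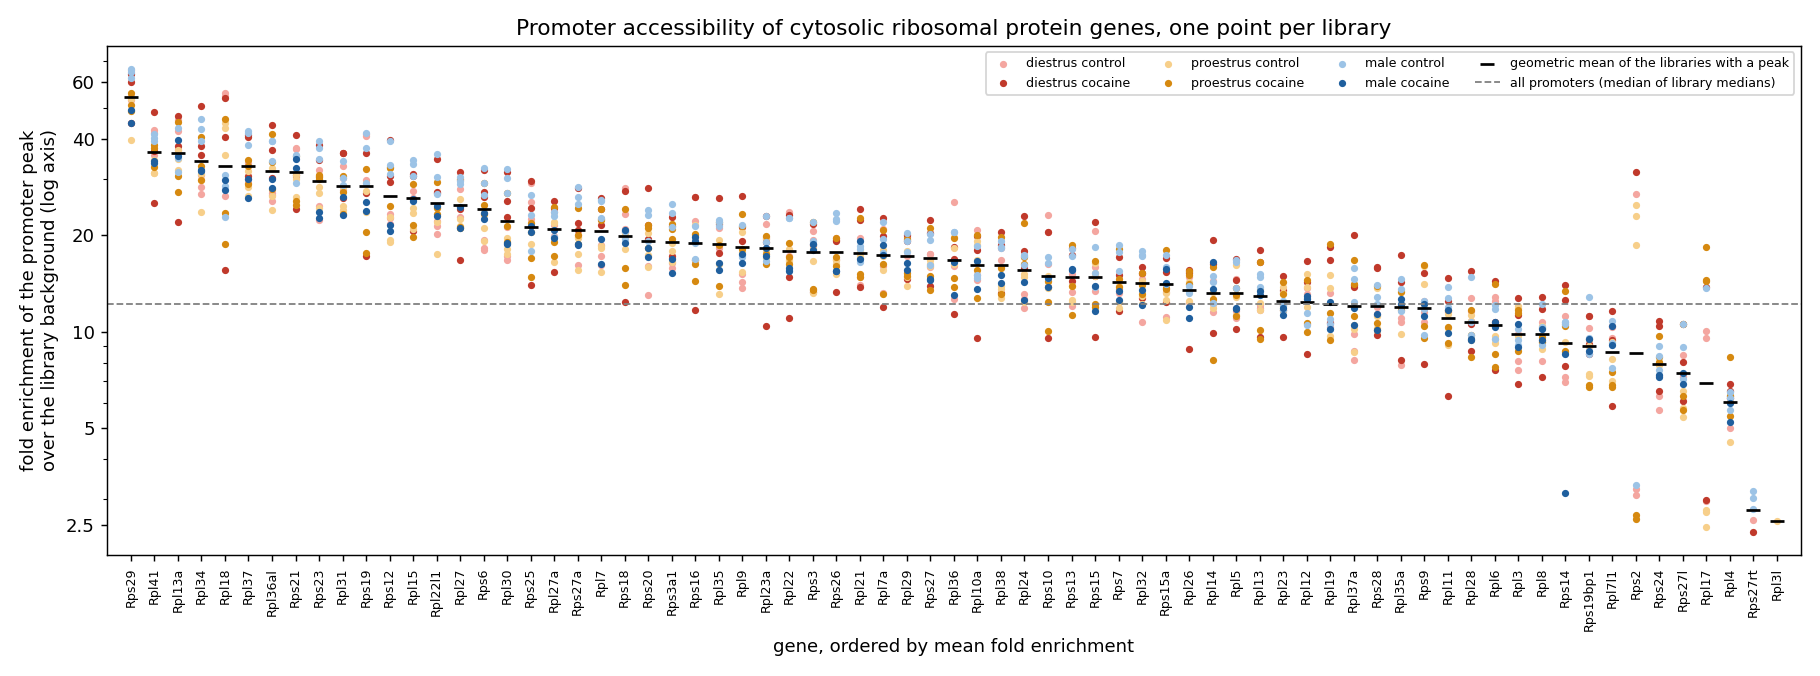
Fold enrichment of the promoter peak over the library background (log axis) for 71 of the members with a peak in at least 1 library, ordered by their geometric mean (black bars), with a point per library coloured by group. Most members lie above the dashed line, the median of all promoters (12.2), Rps29 stands highest, and Rps2 and Rpl17 split into high and low points.

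Members differed from each other far more than single members did between libraries of a group, once library levels were removed. Over the 72 genes with peaks in all libraries, the SD of the mean log2 fold enrichment was 0.63 between members. The median SD between libraries of a group was 0.15, after each library was centred on its median promoter. The corresponding values over all 10950 promoters were 0.89 and 0.16. By rank among these promoters, 49 of 72 members were above the median, 21 were above their upper quartile (20.9), and 3 were below their lower quartile (8.60). Large-subunit and small-subunit genes had medians of 15.9 and 18, a difference well within the spread between members.

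Rps29, which encodes a zinc-binding protein of the small subunit, had the most enriched promoter. Its values were 52.9, 65.3 and 54.5 in diestrus controls and 63.6, 60.1 and 44.9 in diestrus cocaine libraries. They were 39.6, 54 and 53.1 in proestrus controls and 50.9, 55.7 and 48.7 in proestrus cocaine libraries. Males had 64.4, 66 and 61.8 without and 49.2 and 44.8 with cocaine. Every library of Rps29 lay above the mean of the next member, Rpl41 (36.3), which encodes a very short ribosomal peptide. The following members Rpl13a (36.0), Rpl34 (34) and Rpl18 (32.9) had overlapping ranges of 22.1 to 47.2, 23.7 to 50.7 and 15.6 to 55.4, so that their order was not resolved. At the other end stood Rpl4 (6.06, range 4.54 to 8.34), a core large-subunit protein, Rps27l (7.42), Rps24 (7.92), Rpl7l1 (8.67) and Rps19bp1 (9), again with overlapping ranges.

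Among the paralogs, Rpl36al (31.7) and Rpl22l1 (25.1) were as enriched as the stronger ribosomal genes. Rpl22, the paralog partner of Rpl22l1, had 17.8. Other members often studied outside the ribosome had the following levels: Rps3 (17.7), also a DNA repair protein, Rpl5 (13.2) and Rpl11 (11), which bind Mdm2 in the 5S particle, Rps19 (28.4), mutated in Diamond-Blackfan anemia, Rps27a (20.8), which is made as a fusion with ubiquitin, and Rpl10a (16.1), the tag carrier of translating ribosome purification.

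The summit lay close to a start of transcription at most members. It was within 100 bp of the annotated 5′ end at 49 of 72 and within 250 bp of some annotated transcript start at 69. Exceptions were 3 genes: Rpl35 (2405 bp upstream), Rps14 (858 bp from the nearest start) and Rpl3 (548 bp). At Rps10 the summit was 1306 bp inside the gene and 119 bp from a second annotated start, in the same place in all libraries. A divergent protein-coding neighbour started within 1 kb at 9 of 78 members (11.5%, against 6.97% of all and 23.1% of mitochondrial ribosomal protein genes), among them Rpl4 with Zwilch, Rpl9 with Lias and Rps24 with Polr3a. At these genes a peak cannot be assigned to one of the partners.

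Member peaks were wider than most promoter peaks, with a median over libraries of 1634 bp, against 1430 bp for all promoters, 1275 bp at mitochondrial ribosomal protein genes and 382 bp at the few called pseudogenes. Across the 72 members, width and level went together (Pearson r = 0.55 between log2 width and mean log2 fold enrichment, n = 72 genes, which share the libraries), as they did across all promoters (r = 0.65). The narrowest were Rpl11 (833 bp), Rps24 (967 bp) and Rps19bp1 (1015 bp), and the widest Rpl18, Rpl31 and Rpl41, with geometric mean widths of 5552, 5516 and 5105 bp.

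At 6 of the 72 members (8.33%, against 11.9% of all tested promoters) the summit moved by more than 500 bp between libraries. Rpl18 is the clearest case. In 8 libraries its peak ran over 18601 to 22985 bp with a summit about 10.5 kb upstream, and in the other 9 it measured 1193 to 2549 bp with a summit 124 to 175 bp upstream of the 5′ end. The other genes were Rpl35, Rps15, Rpl36, Rps14 and Rpl4. Differences at these 6 genes can compare summits at different places, wherever they appear below.

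**Figure D2:**
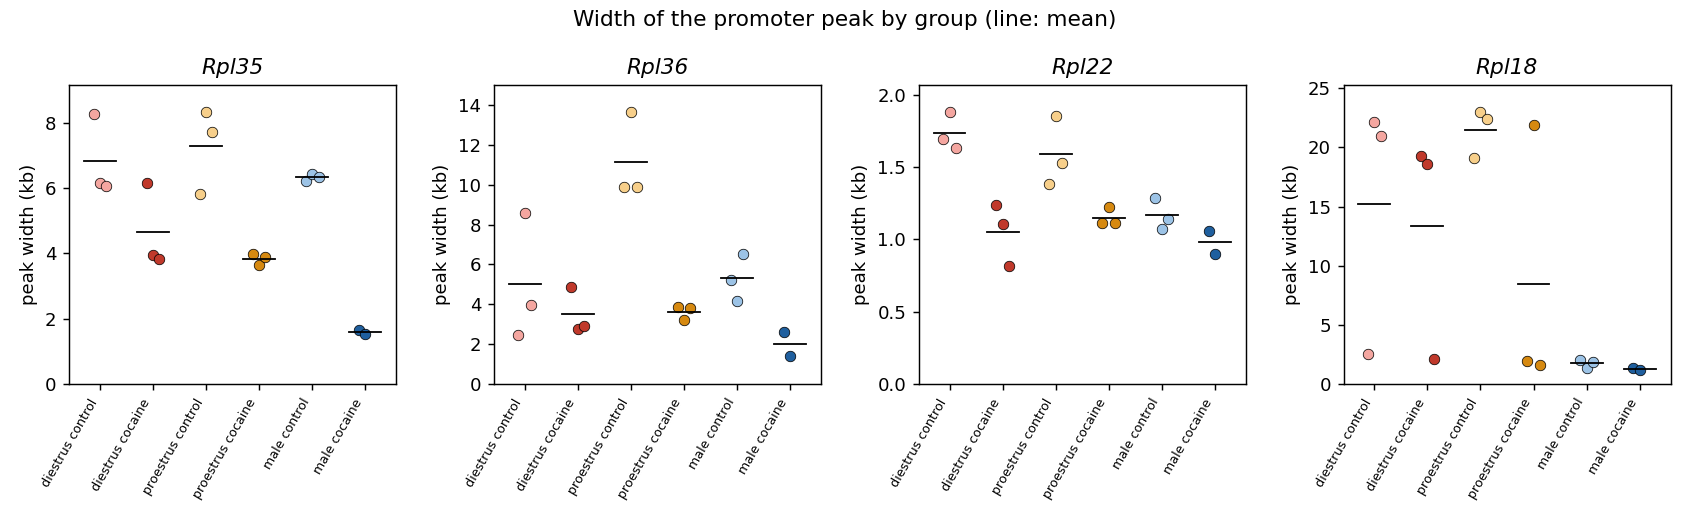
Width in kb of the promoter peak at Rpl35, Rpl36, Rpl22 and Rpl18 for every library, by group (line, arithmetic mean). Rpl35 is narrow in both male cocaine libraries (1650 and 1516 bp), Rpl36 is wide in the 3 proestrus controls, and Rpl18 takes either a narrow or a roughly 20 kb form.

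The first question of the design is whether promoters changed after cocaine in each sex and stage. Log2 fold enrichments were centred on the median promoter of each library and tested with limma over all 10950 promoters, with Benjamini-Hochberg adjustment over all of them. In diestrus, 9 of the 72 members rose relative to the median promoter and 12 fell (background: 8.25% of all promoters rose and 13.4% fell). The member counts correspond to shares near those of the background, and the member median difference of −0.03 equals that of all promoters (−0.03). Large-subunit genes were split 5 to 5 and small-subunit genes 3 to 7 between rises and falls, the remaining rise being Rpl36al. Mitochondrial ribosomal protein genes had 7 rises and 10 falls among 76.

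The largest rise in diestrus was at Rpl37a, a large-subunit zinc-finger protein, with fold enrichments of 9.81, 8.15 and 8.72 in controls and 13.8, 19.99 and 14 after cocaine (log2 difference 0.69 ± 0.16, SE, limma adjusted p = 0.0097). At Rps6 the controls had 18.2, 19.3 and 18 and the cocaine libraries 26.4, 31.9 and 27.2 (0.49 ± 0.13, limma adjusted p = 0.0147). Rpl9, which shares its promoter with Lias, had 13.7, 15.2 and 14.3 against 21.2, 26.5 and 19.2 (0.49 ± 0.13, limma adjusted p = 0.0135). In all 3 genes the lowest cocaine library was above the highest control, but they were picked by the test on these same values. Rpl24 (0.45) and Rps20 (0.44) followed, then Rps12, Rpl30, Rpl34 and Rpl36al (0.34 to 0.41).

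The largest fall was at Rps19, with 29.8, 41.4 and 40.8 in diestrus controls and 36.1, 27.2 and 17.2 after cocaine (−0.66 ± 0.13, limma adjusted p = 0.00538). Rps10 had 16.3, 23.1 and 20.4 against 20.5, 13.8 and 9.53 (−0.63 ± 0.13, limma adjusted p = 0.00548). Rpl22 (−0.57) and Rps16 (−0.51) came next, and the others included Rps18, Rpl23a, Rpl13a, Rps25, Rpl27, Rpl41 and Rps21 (−0.45 to −0.29). On the deposited scale the groups overlapped at all 12 genes, because cocaine library 1 stayed at or above some controls and library 3 was far below. After centring they overlapped at 3 of the 12 (Rps18, Rpl27 and Rpl41). The share of all promoters without overlap is not given here. The 12 genes were picked by the test on the same values, so separation adds no support.

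**Figure D3:**
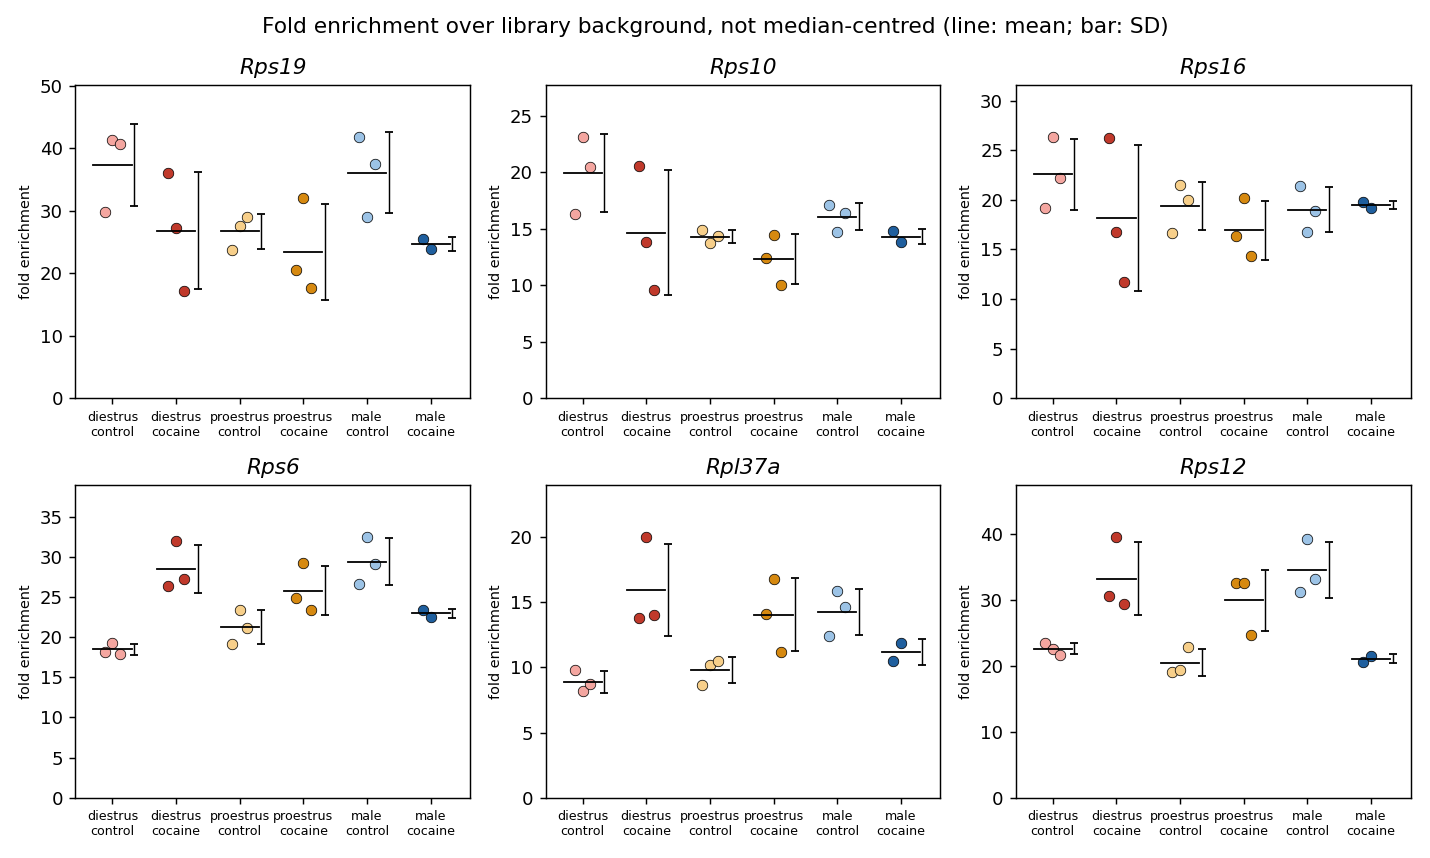
Fold enrichment, not centred, at 6 members by group (points, libraries; lines, arithmetic means; bars, SD). In diestrus Rps6 and Rpl37a have separate control and cocaine points, while at Rps19, Rps10 and Rps16 the cocaine points spread from above some controls to far below.

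The diestrus calls depended on single libraries and on the fit. Leaving out 1 library at a time gave 2 to 33 called members in place of 21: 2 without cocaine library 2 or 3, 33 without cocaine library 1, 4 and 8 without control library 3 or 2. The shares of all promoters called without each library are not given, here or below. Such counts do not set the members apart from other promoters. With the 6 diestrus libraries fitted alone no member passed (background: 0.0089% rose and 0.0089% fell). Without centring 3 rose (Rpl37a, Rpl9 and Rps6) and none fell (background: 2.91% rose and 0.0639% fell). The median promoter was 0.10 higher on the log2 scale after cocaine on this scale. With quantile normalization 11 rose and 7 fell, next to 1079 and 966 of all promoters.

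In proestrus no member passed in either direction (background: 0.00913% of promoters rose and 0.0183% fell by the same limma test). At an unadjusted p under 0.05, 13 members differed (18.1%, against 19.8% of all promoters). The smallest p was at Rps12, a small-subunit protein that is also the host of 3 snoRNA genes, with 19.1, 19.4 and 22.8 in controls and 32.5, 32.5 and 24.6 after cocaine (0.51 ± 0.14, limma adjusted p = 0.147). These groups did not overlap, at a gene picked for the smallest p of these same values. With the 6 proestrus libraries fitted alone, 3 of 73 members rose and 1 fell, against 2.78% and 2.46% of all promoters.

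In males no member passed either (background: 0.21% rose and 0.785% fell by the same limma test), whereas 16 differed at an unadjusted p under 0.05 (22.2%, against 19.0% of all promoters). The smallest p was at Rpl12, with 12.7, 10.5 and 11.4 in controls and 12.7 and 12.9 after cocaine (0.44 ± 0.13, limma adjusted p = 0.0923). On the deposited scale the Rpl12 groups overlapped, and its centred difference goes with a median promoter that was 0.29 lower after cocaine. Without centring, Rpl30, Rps12, Rps14 (a gene with a moving summit) and Rps23 fell in males (background: 9.72% of promoters fell and 0.119% rose). Rpl30 had 30.2, 32.2 and 27 in controls against 18.9 and 18.8, and Rps12 had 31.1, 39.2 and 33.2 against 20.6 and 21.5.

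The next question is whether the effect of cocaine differed between the sexes. The male effect minus the mean of the 2 female effects passed the limma test at 11 members in the positive direction and at 10 in the negative direction (background: 12.4% and 13.1% of all promoters). Rps12 (−0.88 ± 0.18, limma adjusted p = 0.00861) and Rpl30 (−0.69 ± 0.14, limma adjusted p = 0.00908) had positive differences in both female stages (0.41 and 0.51 for Rps12, 0.40 and 0.24 for Rpl30) and negative ones in males (−0.42 and −0.37), of which the diestrus ones passed on their own. Rps16 (0.70 ± 0.17, limma adjusted p = 0.0121) had the opposite signs.

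The 2 largest differences belonged to genes with moving summits. At Rps14 (−0.97 ± 0.28) the male cocaine library 2 had a fold enrichment of 3.14 from a peak of 244 bp, while the other 16 libraries had 6.95 to 14 with summits 1350 to 1464 bp inside the gene. At Rpl18 (0.95 ± 0.33) the long form was present in 8 of the 12 female libraries and in none of the 5 male ones. Without genes of moving summit, 10 positive and 9 negative differences were left. Without centring the split was 0 positive and 16 negative (background: 0.155% and 26.7%), and the median promoter then differed by −0.35. Without male cocaine library 1 or 2 the 21 calls became 1 and 2, and without male control library 2 they became 5.

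Baseline differences between the control groups were compared in the same way. Between diestrus and proestrus controls no member passed (background: 0.0639% higher and 0.0183% lower by the same limma test), and 14 differed at an unadjusted p under 0.05 (19.4%, against 15.9% of all promoters). The smallest p was at Rpl3, with 7.62, 9.82 and 8.09 in diestrus and 9.71, 12.1 and 11.8 in proestrus (−0.48 ± 0.12, limma adjusted p = 0.0744). Here and below, the Rpl3 peak tested is not the strongest one near its annotated starts. Against diestrus controls, male controls were higher at 3 members and lower at 9 (background: 7.74% and 10.4%). Rpl30 (0.46), Rps6 (0.42) and Rpl34 (0.33) were higher, and Rpl18, Rps10, Rps16, Rps18, Rpl13a, Rps25, Rpl12 and Rps21 were among the lower ones (−0.91 to −0.31). The largest, at Rpl18 (−0.91), compares different summits: the long form was present in diestrus control libraries 2 and 3 and in no male control.

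Against proestrus controls, male controls were higher at 2 members, Rps12 (0.43) and Rpl30 (0.37), and lower at 9 (background: 6.82% and 4.91%). The lower ones included Rpl18, Rps9, Rpl19, Rpl12, Rpl3, Rpl10a, Rpl23 and Rpl26 (−0.92 to −0.33). The largest, at Rpl18 (−0.92), again compares different summits, the long form being present in all proestrus controls and in no male control. Without centring the split turned to 12 higher and 0 lower against diestrus (background: 18% and 0.42%), and 14 higher and 0 lower against proestrus (background: 30.1% and 0.347%), with the median promoter 0.23 and 0.35 higher in males. No sign of a named difference changed, but which side passed did. Each control group enters 4 of the 7 contrasts, so that lists of called genes are not independent. Leaving out single libraries gave 0 to 18 calls against diestrus (0 without male control 2 or diestrus control 3, 2 without diestrus control 2, and 7 without male control 3). Against proestrus they gave 3 to 8 in place of 11: 3 without proestrus control 2 or male control 2 or 3, 4 without proestrus control 3 and 5 without proestrus control 1.

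The differences at these promoters followed the base composition of the surrounding chromosome. The GC content of the 1 Mb around each 5′ end ranged from 39.8% (Rps27a) to 53.8% (Rps15) over the tested members, whose median was 46.4%. Over all 78 members the median was 46.6%, against 44.3% over all autosomal protein-coding genes. The background shares given beside the member counts are thus not matched for regional GC. Across the 72 members the diestrus difference fell with this value (Pearson r = −0.67, and −0.65 across all 10950 promoters). The proestrus difference fell with it too (−0.66, and −0.57 across all), and the male difference rose with it (0.47, and 0.44 across all). The GC content of the 500 bp promoter itself had r = 0.01, −0.11 and 0.16 over the members. These correlations describe genes of the same libraries, and near neighbours such as Rps29 and Rpl36al share most of their 1 Mb.

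**Figure D4:**
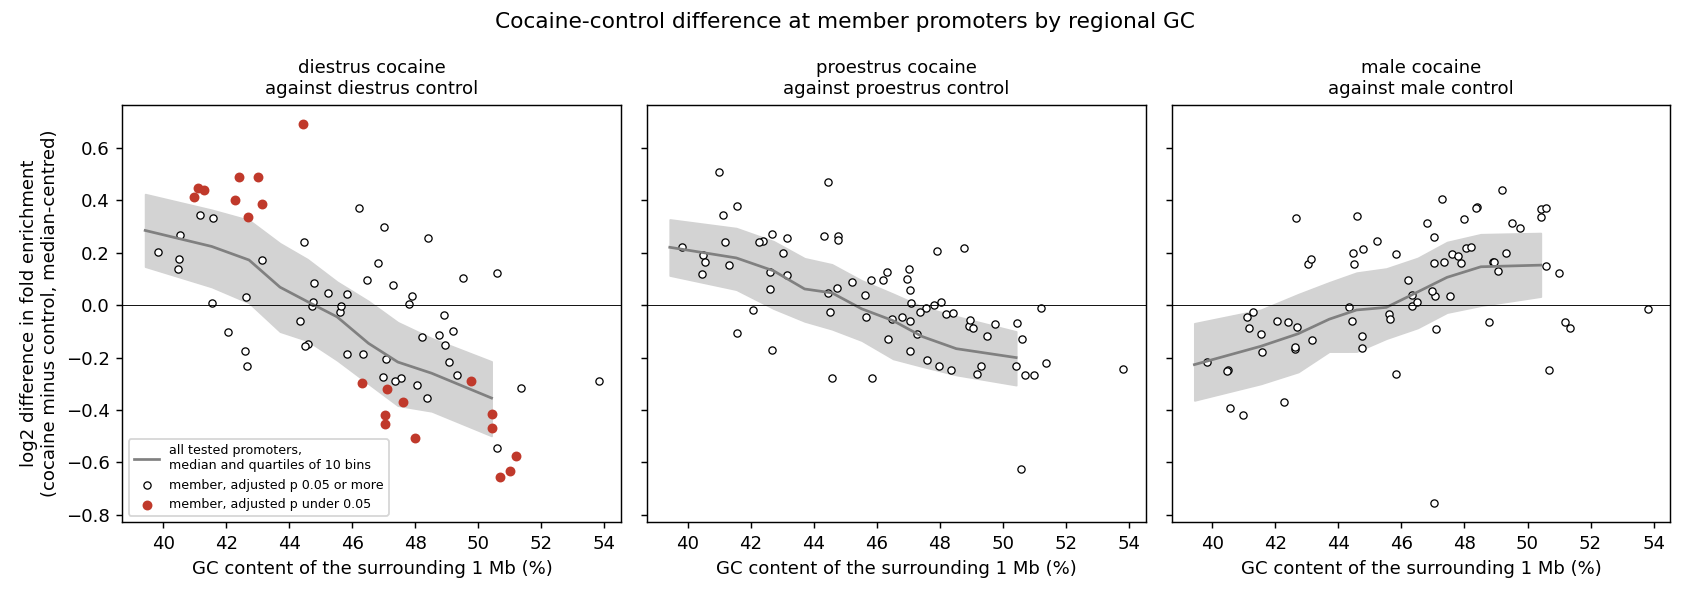
Centred log2 difference in fold enrichment between cocaine and control at the 72 tested members against the GC content of the surrounding 1 Mb, in diestrus, proestrus and males (filled points, limma adjusted p under 0.05; grey, median and quartiles of all promoters in 10 bins). The member points follow the grey band, downward in both female stages and upward in males.

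Split at the median of regional GC, all 9 diestrus rises were among the 36 members in the AT-richer regions, and 11 of the 12 falls were among the 36 in the GC-richer regions. The shares of all promoters called on each side are not given here. Over all promoters the median diestrus difference went from 0.28 in the lowest of 10 bins of regional GC to −0.35 in the highest, so the split is not particular to the members. The AT-richer and GC-richer members had medians of 0.11 and −0.28 in diestrus. The corresponding medians were 0.13 and −0.07 after cocaine in proestrus. Males had −0.06 and 0.17. Chromosome 7 carries 13 members, more than any other chromosome, and 4 of them fell in diestrus, including Rps19, Rps16 and Rpl13a. The median difference of the 13 members was −0.23, and that of all tested promoters on chromosome 7 was −0.31. The share of chromosome 7 promoters called is not given here.

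The dependence on regional GC was also measured in each library. The slope of the log2 fold enrichment, as deviation from the mean of a promoter over the 17 libraries, on 10 points of regional GC was 0.19, 0.48 and 0.47 over the members in diestrus controls and 0.21, −0.34 and −0.59 in diestrus cocaine libraries. Proestrus controls had 0.29, 0.16 and 0.19, and proestrus cocaine libraries −0.30, −0.02 and −0.28. Male controls had 0.02, −0.52 and −0.16, and male cocaine libraries 0.18 and 0.04. The slopes over all promoters were close to these in each library. Cocaine library 1 of diestrus thus stood with the controls, and male control library 2 with the lower female cocaine libraries.

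**Figure D5:**
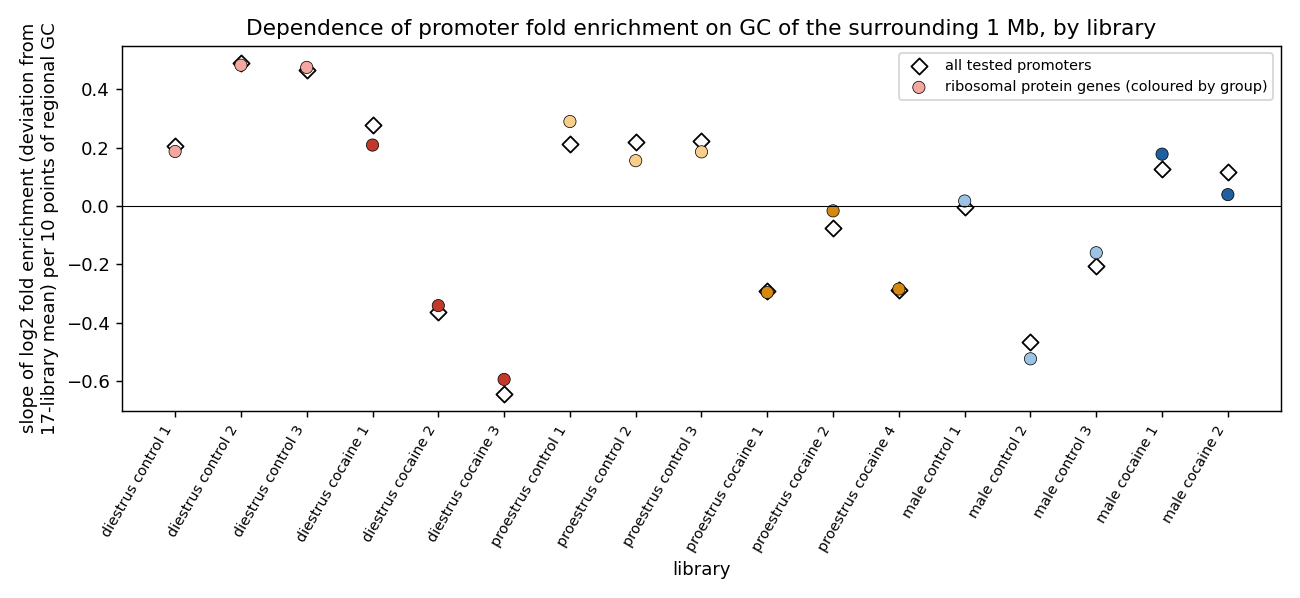
Slope of log2 fold enrichment, as deviation from the 17-library mean of each promoter, per 10 points of GC content in the surrounding 1 Mb, for the members (circles, coloured by group) and all tested promoters (diamonds) in each library. The members track all promoters, from 0.48 in diestrus control library 2 to −0.59 in diestrus cocaine library 3, and libraries of 1 group differ widely.

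When the trend on regional GC was removed from each library, a setting chosen after seeing the data, 10 members passed in diestrus (6 rises and 4 falls, background: 2.47% and 6.44%), of which 5 were among the 21 above: Rpl37a (0.64), Rpl9 (0.33), Rps6 (0.30), Rps19 (−0.31) and Rps16 (−0.31). For the difference between the sexes 2 positive and 3 negative ones passed (background: 2.85% and 2.47%), of which 4 (Rps14, Rps12, Rpl30 and Rps9) were among the 21. In males 1 member, Rps19, fell (background: 0.995%, and 0.393% rose), and in proestrus none passed (background: 0.00913% rose and 0.0183% fell). Between diestrus and proestrus controls Rpl3 was lower in diestrus (background: 0.265%, and 1.58% higher). Of the 12 calls between male and diestrus controls none was left (background: 1.7% higher and 3.78% lower). Between male and proestrus controls 2 were higher and 4 lower (background: 6.5% and 3.94%), and 3 of the 6 (Rpl12, Rpl18 and Rps9) were among the 11. Of the genes named in this paragraph, Rps14 and Rpl18 have moving summits. The removal also takes away any real change that follows regional GC. Whether the GC trend arose in the tissue or in library preparation was not tested.

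Peak width was tested likewise on the log2 scale. The median member difference was −0.20 in diestrus (−0.02 over all promoters) and −0.16 in proestrus (−0.01). It was 0.10 in males (0.03) and 0.29 for the sex difference (0.05). With the regional GC trend removed these became −0.12 (−0.01), −0.11 (−0.01), 0.09 (0.03) and 0.16 (0.04). At an unadjusted p under 0.05, 30.6%, 30.6%, 12.5% and 23.6% of members differed (18.5%, 20.4%, 10.2% and 17.4% of all promoters). After adjustment, 2 members narrowed after cocaine in diestrus and none widened (background: 0.301% narrowed and 0.603% widened). Rpl7a, which shares its promoter with Med22, measured 2229, 2997 and 2726 bp in controls and 1991, 1431 and 1365 bp after cocaine (−0.79 ± 0.14, limma adjusted p = 0.022). Rpl22 measured 1697, 1881 and 1633 bp against 1237, 1105 and 817 bp (−0.79 ± 0.15, limma adjusted p = 0.022). Neither pair of groups overlapped, at genes picked by the test on these same widths. Both calls were lost without centring and without the regional GC trend. Leaving out single libraries gave 0 to 9 narrowed members: 9 without cocaine library 1, none without cocaine library 2 or 3 or control library 3, and 1 without control library 2.

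In proestrus Rpl36 narrowed from 9866, 13650 and 9902 bp to 3871, 3184 and 3813 bp (−1.52 ± 0.32, limma adjusted p = 0.0435, background: 0.566% narrowed and 0.274% widened). In males Rpl35 narrowed from 6221, 6421 and 6329 bp to 1650 and 1516 bp (−1.57 ± 0.23, limma adjusted p = 0.0185, background: 0.146% narrowed and 0.0% widened). Both are genes with moving summits. The Rpl36 call was lost without any 1 of 5 libraries, all but control library 1, and the Rpl35 call without male control library 2 or 3 or male cocaine library 2. At Rpl35 the summit lay 378 and 417 bp inside the gene in the male cocaine libraries and about 2.4 kb upstream in the other 15. No member passed for the difference between sexes in width (background: 0.0274% and 0.311%), and 8 did, all negative, without centring (background: 12% negative and 0.0183% positive).

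Calls themselves hardly separated the groups. A member with a peak in every library of one group and in none of the other was found in 2 contrasts, each time Rps27rt: called in the 3 male controls and in neither male cocaine library (background: 1.86% of all genes in that direction and 0.0721% in the other) nor in the proestrus controls (background: 1.12%, and 0.159% in the other direction). In the other 4 contrasts of peak calls no member was separated in either direction. The background was 0.183% and 0.0433% in diestrus (cocaine only and control only) and 0.211% and 0.269% in proestrus. It was 0.245% and 0.0865% for diestrus against proestrus controls, and 0.851% and 0.154% for male against diestrus controls. The 2 male cocaine libraries also had the fewest peaks, and the part of that in the Rps27rt calls was not tested.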

How the data were processed

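ATAC-seq reads were aligned by the authors to mm10 with BWA-MEM and peaks called with MACS2 in each library (versions and options not given in the sources used here). The authors also used featureCounts and DESeq2, whose tables were not used here. Each deposited peak holds a score, a fold enrichment (a ratio of summit pileup to background, as defined above) and −log10 p and −log10 q values. The deposited fold enrichments were whole multiples of a per-library step (100%, tolerance 0.05), which gave the background pileup and summit pileups in reads. Groups came from labels. For replicate 2 of diestrus cocaine the stage field is blank and the title gave the group. Coordinates follow mm10 and GENCODE vM21, and promoter sequences RefSeq.

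Promoters with a peak in all 17 libraries were fitted with limma 3.58.1 (R 4.3.3, trended empirical Bayes) in 1 model of 6 groups, on median-centred log2 values, with an adjusted p threshold of 0.05, and this was tested on simulated data. The simulated noise was independent between promoters and held no trend on regional GC. Thus the threshold was not tested for libraries that differ in such a trend, as these do. A gene without a peak may still be open below the calling threshold. Where groups of 3 or fewer are compared for single values, no test other than limma was made. Named genes were members lacking a peak in any library, the 5 highest and 5 lowest levels, the 3 widest and 3 narrowest, up to 5 calls per direction and contrast (or the smallest p), paralogs, and 10 well-known members. Others called are listed by name for completeness. Some genes are not reported here. Members, lists and rules were chosen with earlier results of these data known. Alternatives were other centring, filters, windows, peak thresholds, GC corrections, fits per contrast, single libraries left out and a replicate block.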

Additional observations from a re-analysis of the deposited data

Results flagged for a closer look

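The effect of cocaine differed between males and the mean of both female stages, by limma's test of that difference, at 15 of the members named here. Over all members 11 were positive and 10 negative of 72, near the background of 12.4% and 13.1% of all promoters, and without male cocaine library 1 or 2 the 21 calls became 1 and 2. It was lower in males at Rps14 (−0.97), Rps12 (−0.88), Rpl30 (−0.69), Rpl37a (−0.64), Rps23 (−0.61), Rpl34 (−0.45) and Rpl24 (−0.44) on the log2 scale. It was higher in males at Rpl18 (0.95, with a moving summit), Rps16 (0.70), Rpl7l1 (0.67), Rpl12 (0.62), Rpl13a (0.58), Rps18 (0.57), Rps10 (0.57) and Rps9 (0.55). These genes lay in regions of 40.5% (Rps23) to 44.4% GC (Rpl37a) in the first set, except Rps14 with 47.0%, and of 47.0% (Rps18) to 51.0% (Rps10) in the second, except Rps9 with 44.6%. With the trend on regional GC removed, the differences that still passed were Rps14 (−1.18, adjusted p = 0.0207), Rps12 (−0.49, adjusted p = 0.0259), Rpl30 (−0.41, adjusted p = 0.0362) and Rps9 (0.60, adjusted p = 0.0442). At Rps14 male cocaine library 2 had its strongest peak within 1 kb at another place than the other libraries. The other 11 kept their sign but missed the threshold.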

How the results depend on the processing

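Counts are members past the limma threshold. Most stand without the share of all promoters called in the same setting, so they show the dependence on processing only. Fold enrichment in diestrus gave 3 without centring, 10 with the 1 Mb GC trend removed (added after seeing the data), 0 in a fit of its own libraries and 0 with a replicate block. Proestrus gave 1 with promoters in at least 9 libraries and 4 in its own fit. Males gave 4 without centring, 1 with the GC trend removed and 1 in their own fit (against 5.58% of all promoters). With the GC trend removed, the sex difference gave 5, male against diestrus controls 0 and male against proestrus controls 6. Diestrus against proestrus controls gave 1 with the GC trend removed and 2 in their own fit (against 3.04% of all promoters). Peak width gave 0 in diestrus and 0 in proestrus both without centring and without the GC trend, 2 in proestrus with at least 9 libraries, and, without centring, 3 in males and 8 for the sex difference. For peak calls, proestrus gave 2 at a −log10 q of at least 5, 2 with equal numbers of peaks and 1 in a 500 bp window. Males gave 0 at that q and 0 with equal numbers, male against diestrus controls 1 in a 2 kb window, and male against proestrus controls 0 at that q and 0 at 2 kb. The cause of these changes was not tested. Leaving out 1 library at a time gave, for fold enrichment, 2 to 33 in diestrus, 0 to 0 in proestrus, 0 to 1 in males (1 without male cocaine 1, where the lone library left is assumed to vary like the other groups), 1 to 29 for the sex difference, 0 to 18 for male against diestrus and 3 to 8 for male against proestrus controls. For width it gave 0 to 9, 0 to 1, 0 to 1 and 0 to 1 in the same order of the 4 cocaine contrasts, and for peak calls 0 to 1 in diestrus, 0 to 1 for male against diestrus and 1 to 2 for male against proestrus controls. Replicate numbers did not pair libraries: same-numbered deviations correlated at −0.39 to −0.06 for diestrus, at 0.07 and 0.03 for the 2 shared proestrus numbers and at 0.03 for both male numbers, and 0 of 3 diestrus controls correlated best with its own number. A fit with the replicate block called 0 members in all 3 cocaine contrasts. No sign of a difference given for a named gene was reversed in any setting run. Medians over members did reverse without centring. The diestrus median for fold enrichment went from −0.03 to 0.10. For width the male median went from 0.10 to −0.33 and that of the sex difference from 0.29 to −0.12. Precision is limited by 2 or 3 pools a group and by peak files that list no values below the calling threshold.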
